A study of Drosophila melanogaster with 2 samples.

Results

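The insulator and chromatin architecture genes described here are Chro, BEAF-32, Cp190, CTCF, su(Hw), mod(mdg4) and M1BP, 7 of the 13945 protein-coding genes of the Drosophila melanogaster annotation. They were chosen by the measured peaks at or beside them, with earlier results of these same lists known, so their values are given as a description and no test was run on them. A peak was assigned to a gene when its summit lay in the gene body or when a transcription start site (TSS) of the gene was the nearest coding one. Peaks came from chromatin immunoprecipitation followed by sequencing (ChIP-seq) with an anti-GFP antibody, on whole prepupae of mixed sex whose chromatin had been sonicated. All animals were of the transgenic strain dac-GFP, which stably expresses Dachshund (dac) with GFP at its C-terminal end. An age of 48 days stands in the labels too, which is at odds with a prepupal stage. There was 1 group of 2 biological replicates, numbered 1 and 3. Without a mock or untagged control among the samples analysed here, sites of tagged Dachshund and DNA recovered without it cannot be told apart, and cells of every tissue are averaged.

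Insulators are DNA elements that keep enhancers from acting on the wrong promoter and that mark borders between chromosome domains. In flies several DNA-binding proteins recognise them. BEAF-32 binds clustered CGATA sites, often between genes that point away from each other, whereas CTCF and Su(Hw) are zinc-finger proteins with long recognition sites. M1BP, another zinc-finger protein, binds a core-promoter element named motif 1. CP190 and Mod(mdg4) carry BTB domains and are brought to DNA by these proteins, and Chromator, the product of Chro, is a chromodomain protein of polytene interbands and domain borders. Dachshund itself is a nuclear transcription cofactor best known from eye, leg and mushroom body development.

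The authors' list of peaks that passed the irreproducible discovery rate (IDR), a measure of how alike peaks rank, held 4137 peaks. Under the assignment rule 3 of them were at the members, and belonged to Chro, mod(mdg4) and BEAF-32. A place in the list did not require a counterpart in each replicate: 115 of its peaks had none in replicate 1 and 26 none in replicate 3. At Cp190 and M1BP a peak of that list had its summit between the member and a neighbour on the other strand, nearer to the neighbour. At su(Hw) and CTCF there were only peaks of the relaxed lists, which the authors gave for each replicate and for both pooled.

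The sequences that these sites turn on are printed first, 5′ to 3′ on the plus strand of dm6 (Release 6), with matches to any of 8 searched motifs in capitals. The first is the stretch centred on the Chro summit, chr3L:22878880-22878908. The next is the gap between the divergent start sites of Chro and Ssl1, chr3L:22878985-22879088, which lies just upstream of that summit. The third is the whole gap between Cp190 and CG4338, chr3R:15275242-15275521, in which the summits of both replicates lay.
Chro summit: tgtattgcctgtCGATAgctttaaactaa
Chro and Ssl1: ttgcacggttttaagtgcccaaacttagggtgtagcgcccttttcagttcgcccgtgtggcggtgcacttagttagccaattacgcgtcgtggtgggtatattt
Cp190 and CG4338: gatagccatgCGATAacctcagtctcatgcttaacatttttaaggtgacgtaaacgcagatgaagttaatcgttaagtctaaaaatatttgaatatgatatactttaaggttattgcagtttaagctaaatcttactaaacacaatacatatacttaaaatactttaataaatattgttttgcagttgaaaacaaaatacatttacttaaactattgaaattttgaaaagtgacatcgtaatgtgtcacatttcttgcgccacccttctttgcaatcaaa

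The remaining sites are on arm 3R. For M1BP and CG8202 the part of their gap nearest the summit is shown, chr3R:8731929-8732090. For mod(mdg4) there are the stretch centred on its intronic IDR summit, chr3R:21376324-21376524, and the gap between divergent internal start sites, chr3R:21365489-21365608. For su(Hw) and Polr2I, whose peak stayed outside the IDR list, the stretch is chr3R:14308837-14309037.
M1BP and CG8202: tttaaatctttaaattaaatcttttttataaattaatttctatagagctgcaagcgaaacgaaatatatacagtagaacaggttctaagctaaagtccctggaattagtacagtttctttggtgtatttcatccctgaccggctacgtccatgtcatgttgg
mod(mdg4) intron: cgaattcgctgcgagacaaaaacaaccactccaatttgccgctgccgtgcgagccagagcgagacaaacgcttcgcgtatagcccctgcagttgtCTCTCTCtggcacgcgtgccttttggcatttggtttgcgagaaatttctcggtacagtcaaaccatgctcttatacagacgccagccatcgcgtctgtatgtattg
mod(mdg4) internal start sites: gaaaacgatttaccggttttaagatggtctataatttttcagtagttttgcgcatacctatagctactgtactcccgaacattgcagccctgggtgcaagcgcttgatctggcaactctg
su(Hw) and Polr2I: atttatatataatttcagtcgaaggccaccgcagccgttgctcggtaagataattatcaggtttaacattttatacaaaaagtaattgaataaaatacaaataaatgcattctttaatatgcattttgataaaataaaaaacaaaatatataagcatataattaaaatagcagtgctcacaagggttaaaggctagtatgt

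Base composition differed among them, from 26.9% G and C in the su(Hw) stretch and 28.9% in the Cp190 gap to 52.2% in the mod(mdg4) intron. Apart from the short stretch at the Chro summit, which overlaps 1 annotated exon, none of the printed regions overlaps an exon.

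Each relaxed list held 30000 peaks and the IDR list had a median signal of 172.4, with values from 109.8 to 2090.3. Signal is the authors' own value per peak, on a scale that differed between lists, so lists are compared by rank, where rank 1 is the highest signal. A q-value of 0.05 or less was reached by 5282 peaks of replicate 1 and by 13828 of replicate 3. Read depth is unknown for both replicates. Over the 3996 IDR peaks with a counterpart in both replicate lists, the median absolute log2 ratio of the replicate ranks was 0.64.

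**Figure D1:**
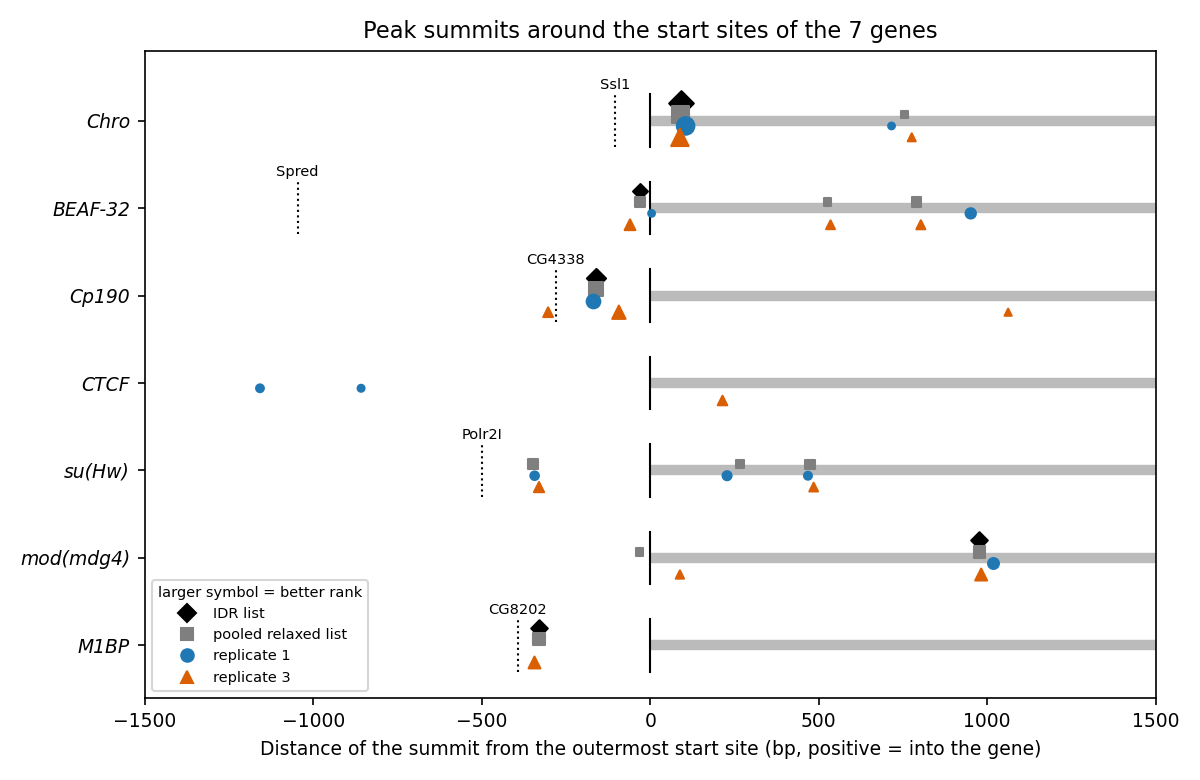
Summits in the IDR list (black diamonds), the pooled relaxed list (grey squares), replicate 1 (blue circles) and replicate 3 (orange triangles), by distance in bp from the outermost start site of each gene, with the gene body as a grey bar, the start site as a solid line and that of the divergent neighbour as a dotted line. Larger symbols mark better ranks. The largest symbols sit at Chro, 88 to 105 bp into the gene, and the IDR diamonds of Cp190 and M1BP lie in the gap between 2 genes.

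Chro (FBgn0044324), the gene of the chromodomain protein Chromator, lies on the minus strand of 3L from 22873702 to 22878984 and has 5 annotated transcripts. Its IDR peak covered 22878714 to 22879083 with a signal of 1346.9 and ranked 13 of 4137. In replicate 1 the peak had a signal of 497.8 and ranked 12, and in replicate 3 it had 857.6 and ranked 13. The ranks differed by 0.12 on the log2 scale, and 90.1% of the IDR peaks found in both replicates had a larger difference. The summit at 22878894 lay 90 bp inside the outermost start site, in an untranslated exon of 1 of the 5 transcripts and upstream of the other 4. The replicates placed it 105 bp (replicate 1) and 88 bp (replicate 3) inside.

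Ssl1, which encodes a subunit of the general transcription factor TFIIH, starts 105 bp from Chro on the opposite strand. By the rule it had no IDR peak of its own. The Chro IDR peak, however, reached to 22879083, next to the Ssl1 start at 22879089, and had its summit within 500 bp of that start. A second and far weaker Chro peak lay 24 to 84 bp upstream of the innermost start site, and 716 to 776 bp downstream of the outer one. Its signal was 33.9 in the pooled list (rank 21709), 19 in replicate 1 (rank 26109) and 25.4 in replicate 3 (rank 15612). None of these had a q of 0.05 or less, the smallest being 0.094 in replicate 3. At Chro the strong signal was thus at the outer start site in both replicates, and none of the lists had a peak of comparable rank further inside the gene.

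Among coding genes outside the architecture list, the promoter peaks nearest to that of Chro in rank in both replicates (n = 2) were those of Tcs5, Hsp27 and larp. Tcs5 ranked 15 in both replicates, and its ranks differed from those of Chro by a summed 0.53 on the log2 scale. Hsp27, a small heat shock protein gene, ranked 14 in replicate 1 and 17 in replicate 3, a summed difference of 0.61. The La-related RNA-binding protein gene larp ranked 16 and 10, a summed difference of 0.79.

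mod(mdg4) (FBgn0002781) encodes a family of BTB proteins that share their N-terminal part and are joined by trans-splicing to many alternative 3′ ends, some of which are transcribed from separate precursor genes inside the locus. The gene covers 26.6 kb of the minus strand of 3R, from 21350846 to 21377401, with 22 transcripts that share 1 start site. Its IDR peak, from 21376219 to 21376628, had a signal of 191.9 and ranked 1749, close to the middle of the list. The summit at 21376424 lay 977 bp downstream of the start site, in an intron of all 22 transcripts. In replicate 1 the peak had a signal of 56 and ranked 3083, and in replicate 3 it had 133.0 and ranked 1521. Of the IDR peaks in both replicates, 28.8% had a larger difference of ranks than this one, which came to 1.02 on the log2 scale. At the start site itself signal was low: 36.5 in the pooled list (rank 19626), 28.5 in replicate 3 (rank 13607) and no peak within 500 bp in replicate 1.

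The highest-ranked peak of mod(mdg4) in either replicate was not in the IDR list. It lay near 11.9 kb downstream of the start site, at divergent internal start sites: that of the precursor pre-mod(mdg4)-E on the minus strand and, 121 bp away, that shared by 7 precursor genes on the plus strand. In replicate 1 its signal was 180.5 at rank 350, with the summit at 21365494. In replicate 3 its signal was 261.9 at rank 410, with the summit at 21365470. Both replicates thus placed it above the intronic peak, and their summits were 24 bp apart. In the pooled list the peak at this place had a signal of only 47.6, below the lowest IDR signal of 109.8. It ranked 13256 with a q of 0.206 and had its summit at 21365622.

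Few peaks behaved this way. Of the 386 peaks among the 500 highest of replicate 1 that overlapped one of the 500 highest of replicate 3, 1 overlapped no IDR peak (0.259%), and it was this one. Counted from replicate 3 it was likewise 1 of 383 (0.261%). Among the 4137 highest of each replicate, 29 of 2936 shared peaks of replicate 1 had no IDR peak (0.988%). The cause was not tested.

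A further minus-strand start, shared by 3 precursor genes, lies at 21365290, beside the peak at the divergent internal start sites. That peak began at 21365292 in replicate 1 and at 21365374 in replicate 3, with its summits nearest to the start of pre-mod(mdg4)-E. The precursor starts away from that peak carried little. There are 23 annotated precursor genes in the locus, 9 on the plus and 14 on the minus strand, with 7 distinct start sites. At the start of pre-mod(mdg4)-AA, -N and -O, 3.8 kb downstream of the mod(mdg4) start, the pooled list had a peak of signal 57.2 (rank 10196) and replicate 3 one of 42.2 (rank 8319), whereas replicate 1 had none there. The remaining relaxed peaks of the locus had signals from 17.1 to 38.5.

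**Figure D2:**
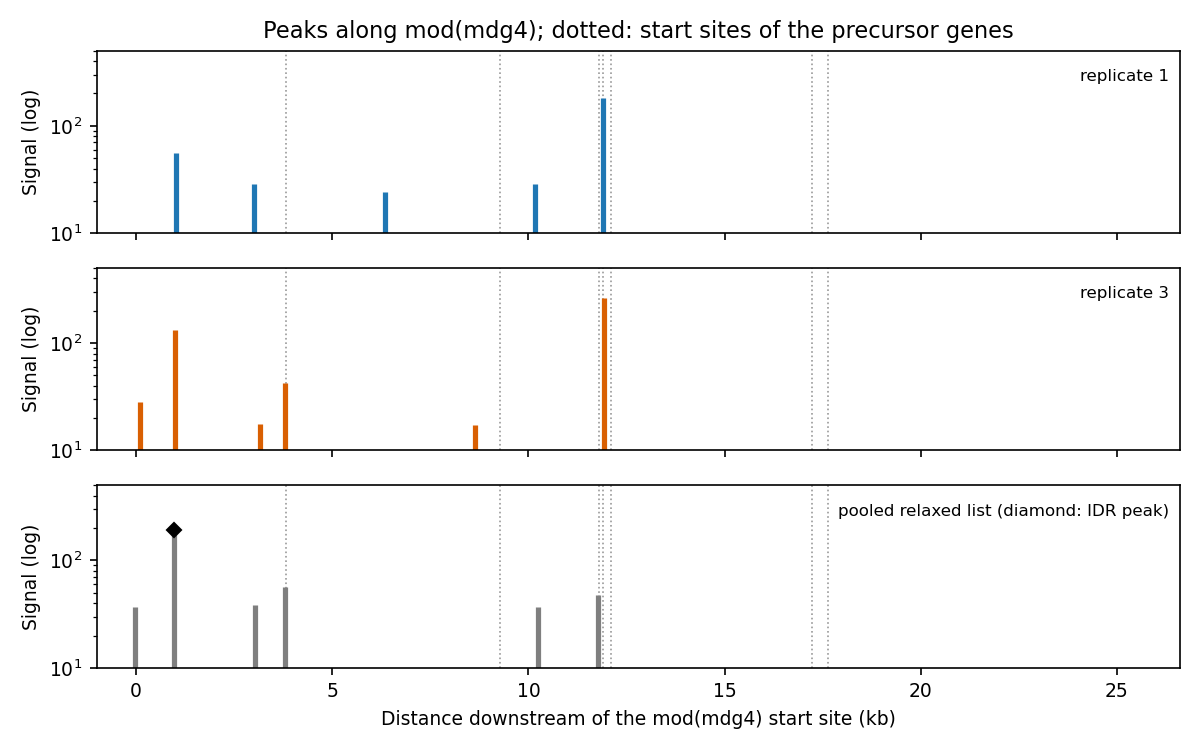
Signal (log axis, authors' units) of every peak assigned to mod(mdg4) against the distance downstream of its start site in kb, for replicate 1, replicate 3 and the pooled relaxed list, with the IDR peak as a diamond and the start sites of the precursor genes as dotted lines. Both replicates have their highest bar near 11.9 kb, where the pooled list has a signal of 47.6, and their second highest near 1 kb.

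BEAF-32 (FBgn0015602) lies on the plus strand of 2R from 14770469 to 14772630, with 3 transcripts and as many start sites. Its IDR peak, from 14770234 to 14770643, had a signal of 116.4 and ranked 3809 of 4137, near the threshold of the list. The summit lay 30 bp upstream of the outermost start site. The replicates differed widely there: replicate 3 had a signal of 79.5 at rank 3419, but replicate 1 had 18.9 at rank 26372 with a q of 0.736. This log2 difference of ranks, 2.95, was exceeded by 1.45% of the IDR peaks found in both replicates.

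The strongest BEAF-32 peak of replicate 1 was elsewhere, 119 bp inside an inner start site, in the coding sequence of 2 of the 3 transcripts, with a signal of 45.3 at rank 4385. Overlapping peaks had their summits 41 bp upstream of that start site in the pooled list (signal 68.6, rank 7957) and 29 bp upstream in replicate 3 (38.4, rank 9421). The lowest signal of any IDR peak was 109.8. Of the peaks assigned to members, the last inside the list was thus that of 116.4 at the outer start site, and the first outside it was a pooled peak of 86.9 at rank 5730. That peak lay 11777 bp from the nearest BEAF-32 start, in the body of kn, which encodes a COE-family transcription factor, and was assigned to BEAF-32 only because no other coding start site was nearer. Apart from the peaks in the body of kn, BEAF-32 had its peaks in the first 1000 bp of the gene or just before it.

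Cp190 (FBgn0000283), the gene of a BTB and zinc-finger cofactor of many insulators, lies on the minus strand of 3R from 15270432 to 15275241. CG4338 starts 281 bp away on the opposite strand. The rule gave Cp190 no IDR peak, yet one lay across its start site and into the space between both genes, from 15275215 to 15275405, with a signal of 402.0 and rank 460. Its summit at 15275403 was 119 bp from the start of CG4338 and 162 bp from that of Cp190. It also lay 2 bp from the end of the peak, and 11 of the 4137 IDR peaks (0.266%) had a summit within 5 bp of an end.

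In replicate 1 the shared peak had a signal of 167.4 and ranked 417, with its summit 169 bp upstream of Cp190. In replicate 3 it had 231.0 and ranked 541, and the summit stood 93 bp upstream of Cp190, so that here Cp190 was the nearest gene. Replicate 3 had a further peak of 52.8 (rank 6172) with its summit 22 bp inside CG4338. The ranks of the shared peak differed by 0.38 on the log2 scale, less than in 68.4% of the IDR peaks found in both replicates. It was therefore strong in both. The replicate summits were 76 bp apart, with CG4338 the nearest gene in replicate 1 and Cp190 in replicate 3. The replicate 1 peak, from 15275208 to 15275611, overlapped both replicate 3 peaks, from 15275215 to 15275411 and from 15275346 to 15275741. Whether the summits mark 1 site was not tested. The 1 remaining Cp190 peak, in the coding sequence in replicate 3, had a signal of 18.4 at rank 22628.

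M1BP (FBgn0037621) is the shortest member, 1909 bp on the minus strand of 3R from 8729790 to 8731698, and CG8202 starts 393 bp away on the opposite strand. By the rule M1BP had no peak in any of the 4 lists. The IDR peak whose summit lay in the space between the genes, from 8731824 to 8732233, had a signal of 189.8 and ranked 1782. Its summit lay 62 bp from the start of CG8202 and 331 bp from that of M1BP. Replicate 3 had it at 128.9 and rank 1605, but no peak of replicate 1 overlapped it. That was so for 115 of the 4137 IDR peaks, and 26 lacked a counterpart in replicate 3.

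su(Hw) (FBgn0003567) lies on the minus strand of 3R from 14304455 to 14308589, and Polr2I, a subunit of RNA polymerase II, starts 500 bp away on the other strand. Neither had an IDR peak. The pooled peak with its summit between them had a signal of 96.7 at rank 4963, with the summit 152 bp from Polr2I and 348 bp from su(Hw), and was thus below the lowest IDR signal of 109.8. In the pooled list its q was 0.000705. Replicate 3 had it at 62.9 (rank 4821, q of 7.18e-05) and replicate 1 at 27.9 (rank 11786, q of 0.37). Inside su(Hw) the pooled list had peaks 474 bp (66.9, rank 8231) and 266 bp (43.6, rank 15167) downstream of the start site. In replicate 1 the inner peaks had signals of 31.3 (rank 9230) and 24.4 (rank 15770), and in replicate 3 the only one had 34.4 (rank 10839, q of 0.0089).

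CTCF (FBgn0035769), the fly counterpart of the vertebrate insulator protein, lies on the minus strand of 3L from 7353578 to 7356713 with 1 transcript, and had no peak in the IDR or the pooled list. Replicate 3 had a single peak, 212 bp downstream of the start site in an intron, with a signal of 48.9 at rank 6905. Replicate 1 had none there. Its 2 peaks, of 23.6 (rank 16927) and 19.8 (rank 24072), lay 1158 and 858 bp upstream, in the body of the neighbouring gene pst. The replicates shared no CTCF peak. The lowest q in replicate 1 was 0.543, whereas the replicate 3 peak had a q of 7.18e-05, the smallest value in that list.

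**Figure D3:**
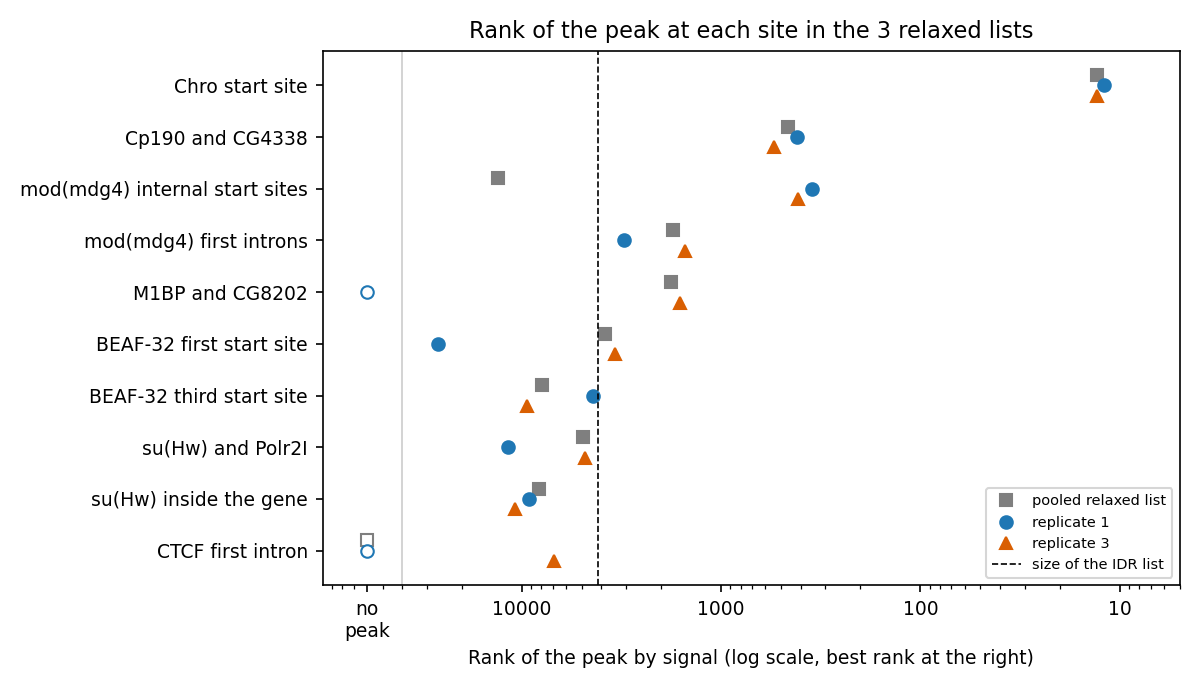
Rank by signal (log axis, best rank at the right) of the highest-ranked peak overlapping each site in the pooled relaxed list (grey squares), replicate 1 (blue circles) and replicate 3 (orange triangles); open symbols at the left mark lists with no peak there, and the dashed line is rank 4137, the size of the IDR list. Chro stands apart at ranks 12 and 13, the Cp190 site follows, and the mod(mdg4) internal site has its pooled rank of 13256 far from the replicate ranks of 350 and 410.

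**Figure D4:**
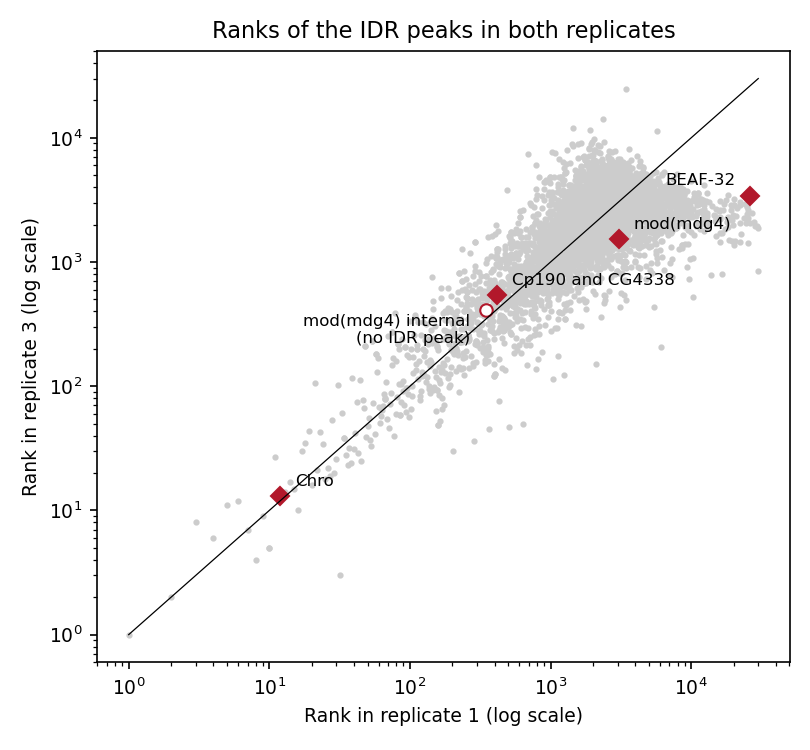
Rank in replicate 1 against rank in replicate 3 (log axes) of the 3996 IDR peaks with an overlapping peak in both (grey), with the member sites as red diamonds, the mod(mdg4) internal site as an open circle and the line of equal ranks. Chro and the Cp190 site lie near the line, and BEAF-32 lies far to the right of it, at ranks 26372 and 3419.

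Against the background of all coding genes, 3 of the 7 members had an IDR peak by the rule, where 2641 of 13945 genes did (18.9%). Since mod(mdg4) is long, the other 6 were also set beside the 4389 genes of 1909 to 5283 bp: 2 of the 6 had an IDR peak, against 15.4% of those genes. With the assignment replaced by a summit within 500 bp of a start site, 4 members were called (Chro, BEAF-32, Cp190 and M1BP), where the background was 12.3%. In the relaxed lists the rule gave 4 members in the pooled list (background 48.8%), 5 in replicate 1 (53.4%) and 6 in replicate 3 (51.6%). At q of 0.05 or less these became 4 (29.8%), 3 (20.9%) and 6 (38.5%). Among the 4137 highest peaks of each replicate the rule gave 2 members in replicate 1 (18.1%) and 4 in replicate 3 (19.6%), and among IDR peaks at or above the median signal it gave 2 (11.7%). A summit in the body or within 1000 bp of a start site gave 5 members (18.6%), and the rule together with a summit within 500 bp of a start site also gave 5 (21.3%). The members were chosen for these peaks, so nothing is read from the differences.

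A divergent neighbour can decide which gene the rule assigns a summit to, as at Cp190 and M1BP, so the arrangement of the genes is not independent of the choice of members. A divergent coding start site within 1000 bp was present for 4 of the 7 members, against 4913 of 13945 genes (35.2%). Of those 4, Chro, Cp190 and M1BP had an IDR summit within 500 bp of their own start site and su(Hw) did not. Among all genes with such a neighbour the share was 19.5%. Of the 3 members without one, 1 had such a summit, BEAF-32, against 8.35% of the other 9032 genes. BEAF-32 has a divergent coding start site at 1046 bp, just beyond the limit of 1000 bp. Since the members were chosen for these peaks, nothing is read from either count. At Cp190 and M1BP the summit was nearer to the neighbour, at Chro it was on the member's own side.

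The sequence within 100 bp of the 5 IDR summits at or beside members was searched on both strands for 8 motifs. For BEAF-32 this was CGATA and for the promoter factor DREF it was TATCGATA. Motif 1, the element of M1BP, was searched as GGTCACAC, the core of the CTCF site as AGGNGGC and that of the Su(Hw) site as TGCATACTT. GAGAGAG stood for GAGA factor, and the E-box forms were CAGCTG and, with the other central bases, CACGTG. Any TATCGATA also holds CGATA on both strands. A CGATA was centred on the Chro summit itself, in the first sequence printed above, and was found at no other of the 5 sites in this window. Over all IDR peaks 22.3% held it, over promoter IDR peaks 28.4%, and over windows of the same length (201 bp) just upstream of every coding gene 38.4%. The CGATA of the Cp190 gap lay beyond 100 bp of the IDR summit. A GAGAGAG, written as CTCTCTC on the plus strand, was centred 2 bp from the mod(mdg4) intronic summit, where 5.51% of the IDR peaks, 7.26% of the promoter IDR peaks and 4.73% of the upstream windows had one within reach.

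One CAGCTG stood 68 bp from the summit between M1BP and CG8202, outside the stretch printed for it, against 7.83%, 10.2% and 11.6% in the same order. Within 100 bp of their IDR summits, the BEAF-32 site and the Cp190 site held no match to any of the 8 motifs. For Cp190 this depended on which summit was taken, as the CGATA above shows. For the motifs found at none of the 5 sites, the shares over all IDR peaks were 1.38% for TATCGATA, 1.5% for GGTCACAC, 5.68% for AGGNGGC, 0.919% for TGCATACTT and 1.93% for CACGTG. A match is only a run of letters, and no match within this window says nothing of the proteins named.

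A list of 42 architecture genes, of which the members are 7, gave the wider setting. Of the other 35 genes, 5 had an IDR peak by the rule (14.3%, background 18.9%). An IDR summit within 500 bp of a start site was found for 5 too (background 12.3%). Trl, which encodes GAGA factor, had 5 IDR peaks, with signals from 166.2 to 1483.3. Its strongest ranked 8, and 7 in each replicate, and lay 1535 bp from the nearest Trl start site in an intron of 1 of 10 transcripts. JIL-1, a histone H3 kinase that binds Chromator, had 2 intronic IDR peaks, the stronger with a signal of 529.9 at rank 229. Top2 (topoisomerase II, 138.4), wapl (a cohesin release factor, 126.4) and Lam (a lamin, 125.5) each had 1 weak peak.

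By class, an IDR peak was present for 1 of 8 cohesin genes, 0 of 7 condensin genes and 1 of 2 lamina genes. It was present for 1 of 11 further insulator DNA-binding genes and 2 of 7 further cofactor genes. These counts are too small to set against the background of 18.9%. By the rule, the highest-ranked IDR peaks of the 42 genes were those of Trl and Chro, at ranks 8 and 13. Both stood among the first 13 in each replicate, and Chro had been chosen on its peaks.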

How the data were processed

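ChIP-seq of 2 replicates was deposited as peak lists on dm6. Relaxed lists, for each replicate and pooled, are named by the authors as input for IDR, and the IDR list draws on both replicates. The deposited signal per peak has no stated scale, and deposited q-values are −log10 q, capped in each list. For the aligner, the peak caller and the IDR cut-off, names, versions and values were not given in the sources used here. Read depth is unknown. Lists on dm3 and the control library named in the labels were not used here.

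Summits (1-based) were assigned to coding genes of Ensembl release 115, with ties between start sites kept, by scripts in Python 3.11.15 with pandas 2.3.3 and numpy 2.4.6, checked on simulated data. Sequence came from RefSeq's Release 6 assembly, whose arms hold every peak. Overlap meant at least 1 bp, and where several peaks of a list overlapped a site the highest-ranked was taken. Members, gene lists and motifs were chosen with earlier results of these data known. No test was run, since there is 1 group and the members were chosen on these peaks.

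Named genes were the members, bound genes of the architecture list, genes starting within 1000 bp of a member on the other strand, and the 3 genes nearest to Chro in promoter-peak rank. The genes kn, pst, Dref, pds5, SMC2 and the precursors of mod(mdg4) were named after their values were seen. Alternatives covered single replicates, the pooled list, signal, assignment, windows and overlap. 1 alternative, the promoter window beside the rule, was added after seeing the data.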

Additional observations from a re-analysis of the deposited data

How the results depend on the processing

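Of the 34 values that counts took under other settings, 25 stayed within 1.5 times the reported one. Among these, the 4137 highest peaks of the pooled list gave the same counts as the IDR list. The member IDR peaks had the same ranks in both lists (13, 1749 and 3809), so for them this setting could hardly differ. The 3 members with an IDR peak became 5, and the 3 peaks likewise 5, when a summit in the body or within 1000 bp of a start site counted (18.6% of all coding genes, against 18.9% by the rule), and also when a summit within 500 bp of a member's start site was added to the rule (21.3% of all coding genes when applied to each), a setting chosen after seeing the data. Both times Cp190 and M1BP came in. With the body or the 1000 bp window, 13 architecture genes had an IDR peak in place of 8, and with IDR peaks at or above the median signal 4 had one (11.7% of all coding genes). At that signal 1 member peak lay within 500 bp of its start site in place of 2. With the 4137 highest peaks of a single replicate in place of the IDR list, members with a peak ranged from 2 to 4 (18.1% and 19.6% of all coding genes), their peaks from 3 to 5, and those within 500 bp of a start site from 1 to 3. BEAF-32 had no peak among the 4137 highest of replicate 1. There the site of its IDR peak ranked 26372, and its strongest peak, at an inner start site, ranked 4385. The mod(mdg4) intronic peak ranked 3083 in replicate 1 and 1521 in replicate 3. No paired analysis was possible because there is 1 group and no test. How depth limits these ranks was not tested, since no counts are in the lists, and both replicates share 1 transgenic line.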

Other observations

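In the wider list, Dref, pds5 and SMC2 had no IDR peak by the rule although an IDR summit lay within 500 bp of a start site, with another gene's start nearer. Among the 4137 highest peaks of each replicate, 9 of the 35 further architecture genes had a peak in replicate 1 and 6 in replicate 3, where the IDR list gave 5. The same lists gave 18.1% and 19.6% of all coding genes, and the IDR list 18.9%. Condensin genes, with no IDR peak among 7, had 3 genes with such a peak in replicate 1 and 1 in replicate 3, counts too small to set against those shares. The CTCF intronic summit of replicate 3 had a CGATA centred 29 bp away, a motif that 22.3% of IDR peaks and 38.4% of upstream windows held. The other summits searched outside the IDR list held no match to any of the 8 motifs. These were the pooled summit between su(Hw) and Polr2I and the mod(mdg4) internal summit of each replicate.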
